A study of Mus musculus with 26 samples.

Results

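The cytosolic ribosomal protein genes code for the proteins of the large (Rpl) and small (Rps) subunits of the ribosome that translates nuclear-encoded messenger RNAs. They were chosen by symbol: Rpl or Rps with a number and at most 1 further letter a, x or l, and the stalk and laminin-receptor genes Rplp0, Rplp1, Rplp2 and Rpsa. Only probe sets assigned to 1 gene counted, and each gene was represented by its probe set with the highest mean. The rule found 46 genes, 24 of the large and 22 of the small subunit, of 18193 genes with a probe set. The names of the kept probe sets ended in _x_at for 14 genes, _a_at for 14, _s_at for 2 and a plain _at for 16. Whether those that end in _x_at, _a_at or _s_at also bound transcripts of other genes was not tested. Another 28 ribosomal protein symbols occurred on the array only in probe sets shared by several genes and have no value here, among them Rplp1, Rpl3, Rpl5, Rpl10 and Rps27a.

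The values came from 26 arrays of immortalized mouse embryonic fibroblasts, which are fibroblasts from mouse embryos kept in permanent culture. There were 3 parental lines, named WA, WB and WC, and each was infected with a pBabe retroviral vector carrying v-src, human c-myc or no insert (pBabe-puro, called empty here). The v-src label reads "pBabe-human v-src", although v-src is an oncogene of a chicken retrovirus. All groups held 3 arrays apart from WB with v-src, which held 2, since its replicate 1 was not analysed here. All cells were immortalized before infection, each line is a single line, and the labels give no genotype, age or means of immortalization. They also do not say that replicates were separate cultures, so p-values within a line or between lines measure a spread between arrays that may be technical.

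A ribosome needs its proteins in near equal amounts, and cells adjust the genes for them together. Their messenger RNAs begin with a run of pyrimidines, the 5′ terminal oligopyrimidine or TOP motif, through which the TOR kinase controls their translation. The transcription factor c-Myc is known to raise genes for ribosome proteins and ribosome assembly, and v-Src is a tyrosine kinase that transforms fibroblasts. Free ribosomal proteins such as Rpl11 can bind Mdm2, the inhibitor of p53.

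Of the 46 genes, 44 passed a filter on low signal and were tested. Rpl3l, the muscle paralogue of Rpl3, had a signal of 4.11 to 63.6 over the 26 arrays and did not pass. The single probe set assigned to Rps16, a gene of every ribosome, read 1.96 to 24.2 and did not pass either, so it gave no measure of that transcript. The kept probe sets of 34 genes had a mean log2(signal + 23) above 13, and 34 to 35 genes lay in the top 2% of signals on every array. Rps18, Rpl41 and Rps29 had the highest means, with 22135, 21254 and 20345 units averaged over the 9 groups. Probe sets differ in how strongly they bind, so these signals do not rank the transcripts.

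All 10 fibroblast markers passed the filter, with a median signal of 21723 for Vim and 20689 for Col1a2. Their summed signal was 96233 to 121214 with v-src, 95806 to 114182 with c-myc and 110988 to 171628 with the empty vector. Of the markers of other cell types, 3 of 5 for macrophages and blood passed, 2 of 4 for endothelium, 4 of 5 for epithelium and 3 of 4 each for skeletal muscle, for neural cells and for adipocytes and cartilage. Ptprc, Itgam, Pecam1, Tek, Cdh1, Myog, Sox2 and Adipoq did not pass, although Sox2 reached 1139 at its highest (median 20.2). Among those that passed, Epcam reached 5624, Col2a1 2430, Fabp4 2094, Map2 1514 and Csf1r 852. The summed signal of the epithelial list was 1389 to 6130 with v-src, 579 to 3993 with c-myc and 865 to 3003 with the empty vector. For the neural list it was 903 to 1618 with v-src, 634 to 1057 with c-myc and 1134 to 2478 with the empty vector. For adipocytes and cartilage it was 269 to 2285 with v-src, 184 to 1761 with c-myc and 398 to 2909 with the empty vector. The sums of the other lists overlapped between all vectors, with 467 to 1197 for macrophages and blood, 264 to 498 for endothelium and 296 to 1252 for skeletal muscle. Whether these sums had a part in the results below was not tested. In bulk RNA, fewer cells of a kind and less RNA per cell cannot be told apart. Arrays of a group correlated across genes with r between 0.960 and 0.983. The array WA empty replicate 3 had the lowest array median, 88.9 against 116.5 over all arrays, and also the highest median signal over the ribosomal protein genes, 19835. The array WC c-myc replicate 1 correlated least with its group.

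The cells with v-src had lower ribosomal protein signals than those with c-myc in each of the 3 lines, on the scale of the deposited values. In v-src cells 35 of the 44 genes were called lower and 0 higher than in c-myc cells (limma on averages of line and vector, adjusted p under 0.05), where 13.6% of all 13018 genes were called lower and 11.9% higher. After quantile normalization, which gives every array the same distribution of signals, 4 were lower and 0 higher (13.5% and 11.6% of all genes), and after setting equal array medians 26 were lower and 0 higher (12.5% and 10.5%). The count was 4 without the intensity trend in the test, and 7, 12 and 7 without line WA, WB or WC. The median difference was -0.24 on the log2 scale (quartiles -0.27 and -0.20), against -0.02 over all genes, with -0.26 for WA, -0.24 for WB and -0.21 for WC. After quantile normalization the median was -0.03, equal to that of all genes. The large subunit genes had a median of -0.25 and the small subunit genes -0.23.

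The upper end of the signals tended to be lower on the v-src arrays as well. The 98th percentile of signal was 6094 to 6362 on the v-src arrays, 6109 to 6870 on the c-myc arrays and 6143 to 7243 on the empty-vector arrays. These ranges overlapped, with medians of 6169, 6572 and 6547. The deposited scale fixes only a trimmed mean that leaves out the highest and lowest 2% of probe sets, and most of these genes lie in the trimmed part. A shift of ribosomal protein transcripts and a shift of the whole upper end of the array therefore cannot be told apart for genes at that level. The share of an array's summed signal that fell on the 44 probe sets was 1.65% to 1.84% with v-src, 1.87% to 2.17% with c-myc and 1.67% to 2.17% with the empty vector. The v-src and c-myc shares did not overlap.

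**Figure D1:**
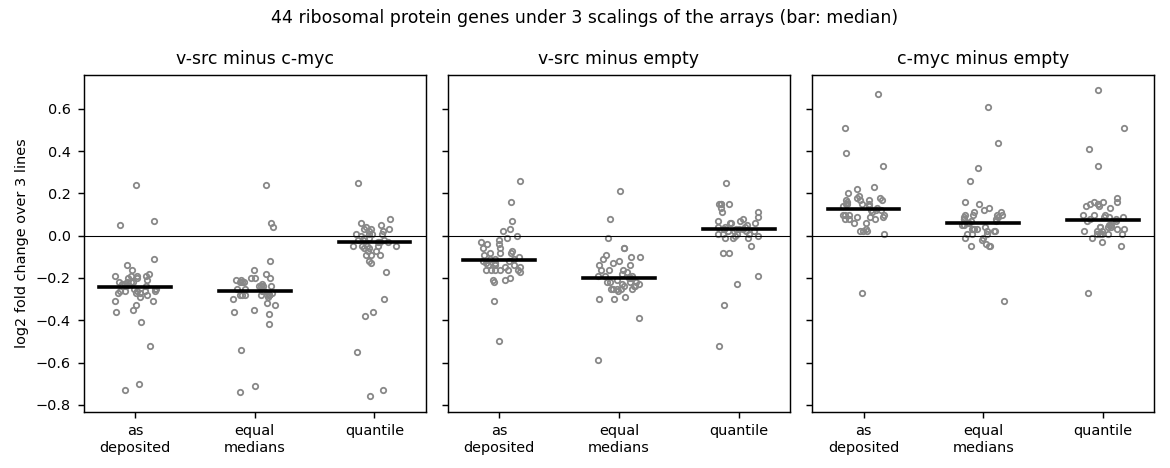
Log2 fold changes (vertical axis) of the 44 ribosomal protein genes over 3 lines in v-src minus c-myc, v-src minus empty and c-myc minus empty, from values as deposited, with equal array medians and after quantile normalization. Circles are genes and bars are medians. In v-src minus c-myc the median was -0.24 as deposited, -0.26 with equal medians and -0.03 after quantile normalization, and in v-src minus empty it turned to 0.03.

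Rpl14, Rpl12, Rps25 and Rps27l were called lower in v-src than in c-myc cells both as deposited and after quantile normalization, while with equal array medians Rps25 missed the threshold (adjusted p = 0.0608). Each has a kept probe set outside the top group of signals or at its lower edge, with mean log2 levels of 9.47 for Rpl14, 9.20 for Rpl12, 10.57 for Rps25 and 13.24 for Rps27l. The same 4 genes were those called higher in c-myc than in empty-vector cells after quantile normalization. Both comparisons use the same c-myc arrays, so the second is no separate evidence for the first.

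The start regions of these 4 genes are shown beside those of Rps27 and Rpl39, which were called in no comparison over the lines, because the TOP motif lies at the start of the transcript. Each sequence, from RefSeq on build GRCm38.p6, covers 20 bases before the annotated start and 40 from it, and capitals mark a run of at least 6 C or T letters that reaches into the window from 5 bases before to 15 bases after the start. The regions are chr9:120571497-120571556 (plus strand) for Rpl14, chr2:32961692-32961751 (plus strand) for Rpl12, chr9:44407694-44407753 (plus strand) for Rps25, chr9:66946066-66946125 (plus strand) for Rps27l, chr3:90213609-90213668 (minus strand) for Rps27 and chrX:37085183-37085242 (minus strand) for Rpl39.
Rpl14: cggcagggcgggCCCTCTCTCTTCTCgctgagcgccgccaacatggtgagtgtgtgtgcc
Rpl12: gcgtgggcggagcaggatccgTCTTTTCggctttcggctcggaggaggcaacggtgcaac
Rps25: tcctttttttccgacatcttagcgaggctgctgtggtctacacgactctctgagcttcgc
Rps27l: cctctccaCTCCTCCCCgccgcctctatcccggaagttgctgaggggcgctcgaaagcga
Rps27: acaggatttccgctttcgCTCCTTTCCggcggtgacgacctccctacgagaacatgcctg
Rpl39: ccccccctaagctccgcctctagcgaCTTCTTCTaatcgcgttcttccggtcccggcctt
The run was 14 letters long in Rpl14, 7 in Rpl12, 9 in Rps27l, 9 in Rps27 and 8 in Rpl39, and the annotated start of Rps25 had none of that length. The printed sequence of Rps25 does open with a run of C and T letters. That run ends more than 5 bases before the annotated start and did not count. Over the 40 ribosomal protein genes with a promoter in the table, 26 (65.0%) had such a run at 1 of their annotated starts, against 32.1% of 27025 genes. The runs were thus present in genes that were called and in genes that were not.

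Rpl14, a protein of the large subunit, had 666, 651 and 677 units in WA cells with v-src, against 1098, 1295 and 1142 with c-myc. In WB cells it had 397 and 473 units with v-src, against 800, 892 and 730 with c-myc, and in WC cells 672, 644 and 576 with v-src, against 894, 942 and 917 with c-myc. Every v-src array was below every c-myc array of its line, and over the lines the difference was -0.73 (SE 0.15, adjusted p = 0.00988, lower in 3 of 3 lines). After quantile normalization it was -0.76 (adjusted p = 0.00878).

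Rpl12 sits at the base of the ribosomal stalk, where elongation factors bind. It had 589, 566 and 564 units in WA cells with v-src, against 896, 835 and 920 with c-myc. In WB cells the values were 385 and 403 with v-src, against 585, 629 and 656 with c-myc, and in WC cells 432, 387 and 343 with v-src, against 727, 601 and 843 with c-myc. The 2 groups did not overlap in any line, and the difference was -0.70 (SE 0.11, adjusted p = 0.00424), or -0.73 after quantile normalization.

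Rps25 is a protein of the small subunit known for its part in initiation at viral internal ribosome entry sites. It had 1945, 1892 and 1841 units in WA cells with v-src, against 2225, 2023 and 2020 with c-myc. It had 1012 and 1022 units in WB cells with v-src, against 1404, 1462 and 1299 with c-myc, and 1633, 1392 and 1619 in WC cells with v-src, against 1690, 2459 and 2355 with c-myc. The groups did not overlap within a line, although the lowest c-myc array of WC, replicate 1, came close to its v-src arrays. The difference was -0.35 (SE 0.10, adjusted p = 0.0439). The call was lost, among others, without v-src replicate 3 of WA or 2 of WC, c-myc replicate 1 of WA or 2 of WC, or empty-vector replicate 2 of WA or 3 of WC.

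Rps27l is a paralogue of Rps27 and is known in human cells as a target of p53. It had 8943, 8185 and 8474 units in WA cells with v-src, against 11118, 11909 and 11930 with c-myc. In WB cells it had 7592 and 7877 units with v-src, against 10991, 10760 and 9274 with c-myc, and in WC cells 9521, 9533 and 10351 with v-src, against 12338, 13038 and 12514 with c-myc. Rps27l differed by -0.41 (SE 0.06, adjusted p = 0.00410) and was called under all 40 alternative settings run, with a highest adjusted p of 0.0419. Some of these settings took the arrays as separate values, with a spread that may be technical. Rps27 itself, at 644 to 1085 units with v-src in the 3 lines and 353 to 1206 with c-myc, differed by 0.05 (SE 0.13) and was not called. All probe sets of Rps27l have names that end in _x_at or _a_at, while that of Rps27 ends in a plain _at. Whether those of Rps27l also bound transcripts of other genes, Rps27 among them, was not tested.

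**Figure D2:**
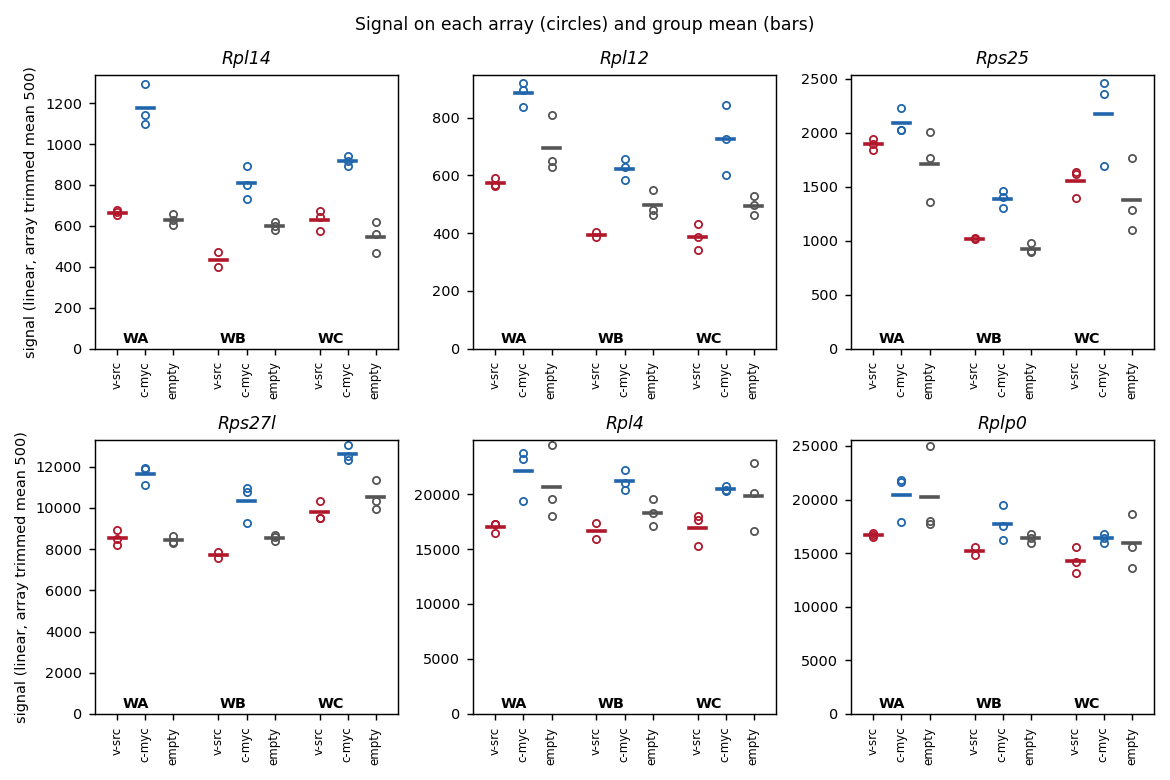
Signal on each array (circles, linear units at an array trimmed mean of 500) and group mean (bars) for 6 ribosomal protein genes in lines WA, WB and WC with v-src, c-myc and the empty vector. For Rpl14 the v-src and empty arrays lay between 397 and 677 and the c-myc arrays between 730 and 1295, while for Rplp0 and Rpl4 the WA empty arrays spread as widely as the vectors differed.

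Among the genes at the top of the signal range the difference was small and even. The other 11 of the 15 called genes with the largest differences, and their values, were Rpl4 (-0.33), Rps15 (-0.31), Rpl27 (-0.31), Rpl6 (-0.29), Rps14 (-0.28), Rpsa (-0.27), Rpl19 (-0.27), Rpl8 (-0.27), Rps4x (-0.26), Rpl10a (-0.26) and Rps9 (-0.26). None of these 11 was called after quantile normalization. Rpl4, which lines the tunnel through which the new protein leaves, had 16486, 17293 and 17270 units in WA cells with v-src, against 19326, 23174 and 23754 with c-myc. In WB cells Rpl4 had 17358 and 15936 units with v-src, against 22221, 20993 and 20377 with c-myc, and in WC cells 15239, 17642 and 17968 with v-src, against 20257, 20704 and 20333 with c-myc. Its groups did not overlap in any line. The difference of -0.33 (SE 0.05, adjusted p = 0.00404) shrank to -0.09 after quantile normalization (adjusted p = 0.165).

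Of the stalk proteins, Rplp0 differed by -0.24 (SE 0.05, adjusted p = 0.0128) and Rplp2 by -0.20 (SE 0.05, adjusted p = 0.0243), and neither was called after quantile normalization, where Rplp2 turned to 0.03. Rpl11, a binder of Mdm2, differed by -0.19 (SE 0.06, adjusted p = 0.0411) and lost its call after quantile normalization, with equal array medians and without any 1 of 8 arrays: WA empty replicates 1 and 2, WC empty replicate 1, WA c-myc replicate 3, WB and WC c-myc replicate 1 and WA and WC v-src replicate 1. Rps6, the small subunit protein that S6 kinase phosphorylates, differed by -0.36 (SE 0.15, adjusted p = 0.112) and was not called. For 26 of the 44 genes every v-src array was below every c-myc array in all 3 lines, against 13% of all genes, and for 0 was it above, against 10.3%. Within single lines 25 genes were called lower with v-src in WA, 14 in WB and 14 in WC, against 20.8%, 15.6% and 22.3% of all genes, and 0 higher in each line, against 18.2%, 15.4% and 17.8%.

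**Figure D3:**
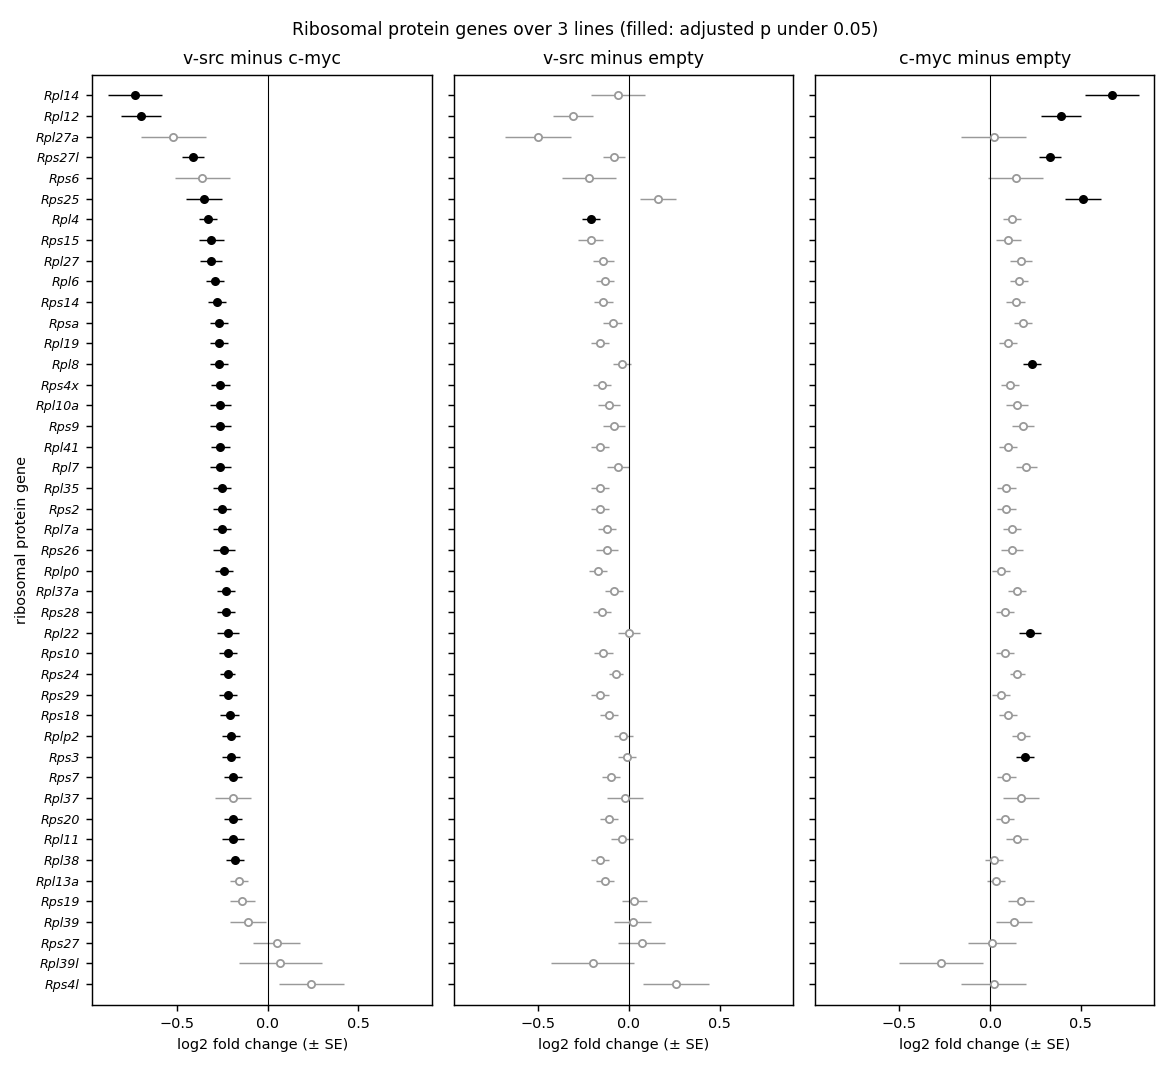
Log2 fold change with SE (horizontal axis) of the 44 ribosomal protein genes over 3 lines, in values as deposited, for v-src minus c-myc, v-src minus empty and c-myc minus empty, with genes in order of the first. Filled points had an adjusted p under 0.05: 35, 1 and 7 genes. After quantile normalization 4, 0 and 4 were called.

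Compared with the empty vector, c-myc cells had higher signals of 7 ribosomal protein genes and lower signals of 0, where 10% of all genes were called higher and 9.76% lower. The members' median was 0.13 against 0.04 over all genes, and 43 of 44 values were above 0. After quantile normalization 4 were higher and 0 lower (9.94% and 9.52% of all genes), with a median of 0.08, and with equal array medians 2 were higher and 0 lower (5.69% and 10.7%), with a median of 0.06. Leaving out WA empty replicate 3 raised the count of 7 to 19, and leaving out WA empty replicate 2 lowered it to 3. Without the WA or the WC line it was 0.

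Rpl14 rose most with c-myc, by 0.67 (SE 0.15, adjusted p = 0.0179, 1.59-fold), with the c-myc values given above against 605, 627 and 658 units in WA cells with the empty vector, 621, 598 and 581 in WB cells and 466, 558 and 619 in WC cells. No c-myc array overlapped the empty arrays of its line. Rps25 was higher by 0.51 (SE 0.10, adjusted p = 0.0150), against empty-vector values of 1768, 1354 and 2001 units in WA, 892, 975 and 904 in WB and 1098, 1281 and 1761 in WC, where 1 c-myc array of WC lay below the highest empty array. Rps27l was higher by 0.33 (SE 0.06, adjusted p = 0.0119), against 8316, 8337 and 8656 units with the empty vector in WA, 8407, 8602 and 8687 in WB and 9968, 11356 and 10344 in WC.

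Rpl12 was higher by 0.39 (SE 0.11, adjusted p = 0.0407), with 648, 628 and 809 units in WA cells with the empty vector, 549, 463 and 479 in WB and 461, 527 and 498 in WC. The arrays of Rpl12, Rpl14 and Rps27l did not overlap in any line, which 9.04% of all genes also showed. Rpl12 was not called without WA empty replicate 1 or 2. With equal array medians Rpl12 (adjusted p = 0.0921) and Rps27l (adjusted p = 0.0512) missed the threshold. Rpl8, a protein near the catalytic centre of the large subunit, was higher by 0.23 (SE 0.05, adjusted p = 0.0235), Rpl22 by 0.22 (SE 0.06, adjusted p = 0.0322) and Rps3, at the entry of the messenger RNA channel, by 0.19 (SE 0.05, adjusted p = 0.0354). None of these 3 was called after quantile normalization or with equal medians. Within lines 6 genes were called higher in WA, 7 in WB and 9 in WC, against 19%, 12.5% and 18.6% of all genes, and 0 lower in each, against 18.5%, 14.5% and 18.6%.

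The E-box CACGTG, the sequence bound by Myc with its partner Max, occurred in the promoter window of 4 of the 40 genes (10%), against 8.09% of all 27025 genes. The window covers 250 bases before the start and 50 from it, and the motif reads the same on both strands. Of the genes called with c-myc, Rpl14 had it, Rpl8 had no window to read and the others had no match in theirs. In Rpl14 it lay at position -168 with the first transcribed base as 1. The whole window of Rpl14, chr9:120571267-120571566 (plus strand), is shown with that of Rpl19, chr11:98026460-98026759 (plus strand), which had the motif at -19 and was not called (0.10, SE 0.05, adjusted p = 0.209). Capitals mark the E-box.
Rpl14: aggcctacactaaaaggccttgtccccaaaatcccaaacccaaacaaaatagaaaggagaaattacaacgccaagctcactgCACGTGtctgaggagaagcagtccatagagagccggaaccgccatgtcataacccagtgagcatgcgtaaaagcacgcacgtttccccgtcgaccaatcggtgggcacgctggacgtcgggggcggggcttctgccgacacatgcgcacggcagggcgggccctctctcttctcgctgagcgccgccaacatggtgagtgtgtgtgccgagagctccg
Rpl19: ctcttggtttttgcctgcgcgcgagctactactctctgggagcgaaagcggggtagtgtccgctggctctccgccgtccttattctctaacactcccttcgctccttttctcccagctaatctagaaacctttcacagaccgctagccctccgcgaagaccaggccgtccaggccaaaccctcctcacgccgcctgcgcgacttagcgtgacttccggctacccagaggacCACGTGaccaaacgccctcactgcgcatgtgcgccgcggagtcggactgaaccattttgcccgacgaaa
The ETS-type motif CCGGAAG, read on either strand, was in 20 of the 40 windows by gene (50%, against 9.93% of all genes), AAGATGGC in 3 (7.50%, against 3.19%) and TATAAA in 5 (12.5%, against 15.7%). Of the genes shown, Rps25 had CCGGAAG at -73, Rps27l at 10, Rpl39 at 24 and Rpl19 at -39, the last 2 on the opposite strand. Such a match describes these letters alone.

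Compared with the empty vector, v-src cells had 1 ribosomal protein gene called lower and 0 higher, where 6.78% of all genes were called lower and 6.64% higher. That gene was Rpl4, at -0.21 (SE 0.05, adjusted p = 0.0346), with the v-src values given above against 19557, 17960 and 24473 units in WA cells with the empty vector, 17127, 19528 and 18287 in WB and 22830, 20120 and 16629 in WC. Its v-src and empty arrays overlapped in WB and WC, and it was not called after quantile normalization (-0.05, adjusted p = 0.499) or without WA empty replicate 3, WB empty replicate 2, WC empty replicate 1, WB v-src replicate 3 or WC v-src replicate 1. The median of the 44 genes was -0.11 against 0.02 over all genes, with 39 below 0. After quantile normalization it was 0.03 with 12 below 0, and 0 genes were called in either direction (6.77% of all genes lower, 6.35% higher). With equal array medians it was -0.20 with 42 below 0, and 2 genes were lower and 0 higher (9.02% and 4.76%). Unadjusted p was under 0.05 for 19 of the 44 genes as deposited and for 5 after quantile normalization. The share of all genes under that unadjusted p was not worked out, so these 2 counts are no result about the 44 genes.

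Rpl12 was the single gene with every v-src array below every empty array in all 3 lines (9.06% of all genes), with a difference of -0.31 (SE 0.11) that missed the threshold (adjusted p = 0.105). Rpl27a, picked after its values were seen, had the most negative difference, -0.50 (SE 0.18, adjusted p = 0.0989). Within lines 2 genes were called lower with v-src in WA, 1 in WB and 2 in WC, against 14.1%, 13.5% and 15.1% of all genes, and 0 higher in each, against 13.2%, 12% and 13.8%. After quantile normalization 2 were called higher and 0 lower in WA, 3 higher and 1 lower in WB and 4 higher and 2 lower in WC. The share of all genes called within a line was not worked out under that scaling, so these last counts are no result about the ribosomal protein genes.

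The change with v-src against the empty vector differed between lines for 1 gene, Rpl14 (limma F test over the differences between lines, adjusted p = 0.0131), where 13.5% of all genes differed. The difference in log2 signal was 0.07 for WA, -0.45 for WB and 0.20 for WC. The WB value rests on the 2 v-src arrays with 397 and 473 units, and without replicate 2 the adjusted p was 0.140. The next genes, Rps19 (adjusted p = 0.241), Rps6 (0.241), Rpl7 (0.260) and Rpl39l (0.362), did not pass. For c-myc against the empty vector 0 of 44 genes differed between lines by the same test, where 16.1% of all genes did. The unadjusted p of that F test was under 0.05 for 3 of the 44 (Rpl14 at 0.0133, Rps6 at 0.0261 and Rpl37 at 0.0335), and the share of all genes under it was not worked out. Rpl14 passed the F test without WC empty replicate 3 (adjusted p = 0.0383) or without WB c-myc replicate 2 (0.0465). Rps27l (adjusted p = 0.211) and Rps19 (0.247) came next.

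The signals of 2 paralogues stood far apart between the parental lines. Rps4l is a relative of Rps4x that RefSeq lists as a transcribed pseudogene, and Rpl39l is a paralogue of Rpl39 known from mouse testis. With the empty vector, Rps4l had 535, 372 and 438 units in WA, 6.42, 8.30 and 4.37 in WB and 61.4, 137 and 181 in WC. With v-src it had 500, 558 and 593 units in WA, 4.30 and 10.3 in WB and 216, 180 and 124 in WC, and with c-myc 421, 458 and 438 in WA, 10.6, 6.73 and 13.5 in WB and 166, 35.1 and 185 in WC. Under each vector the 3 lines did not overlap.

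Rpl39l had 767, 590 and 667 units in WA with the empty vector, 64.3, 69.5 and 6.00 in WB and 109, 50 and 73.7 in WC. With v-src it had 871, 828 and 913 units in WA, 12.3 and 44.2 in WB and 53.4, 33.3 and 36.8 in WC, and with c-myc 591, 475 and 493 in WA, 69.5, 32.2 and 18.2 in WB and 46, 53.4 and 53.2 in WC. WA was above the other lines under each vector, while WB and WC overlapped with the empty vector, v-src and c-myc. All WB values of Rps4l and some WB values of Rpl39l lie under the pseudocount of 23 units. Both genes passed the filter through the lines in which they are high, so their differences between lines are given as signals, with no fold change or p-value. Neither gene was called between vectors over the lines. Rpl39 had 621 to 1049 units in WA with the empty vector, 816 to 1071 in WB and 889 to 1087 in WC, which overlapped.

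**Figure D4:**
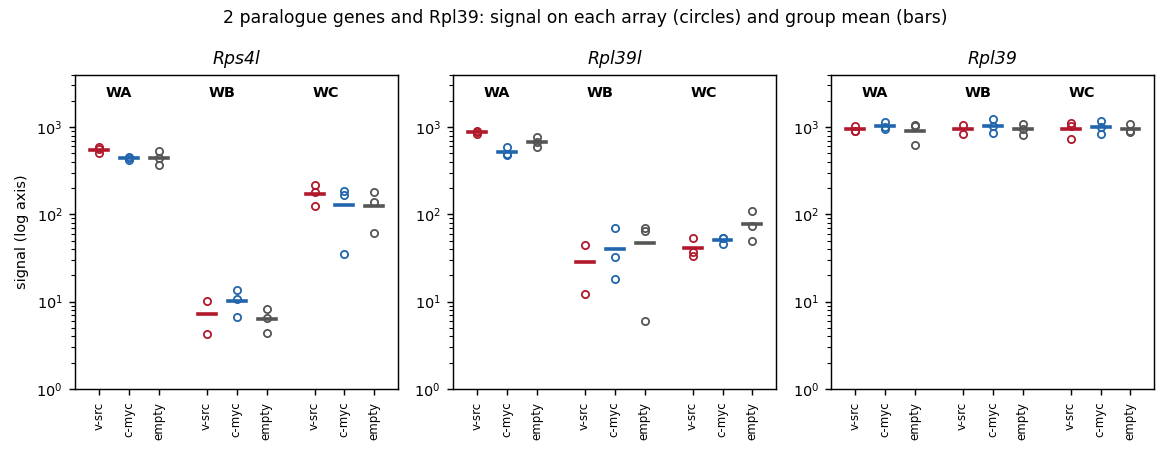
Signal on each array (circles, log axis) and group mean (bars) of Rps4l, Rpl39l and Rpl39 in lines WA, WB and WC with v-src, c-myc and the empty vector. Rps4l lay between 372 and 593 units on the WA arrays and between 4.30 and 13.5 on the WB arrays, and Rpl39l was high in WA alone, whereas Rpl39 overlapped between lines.

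With the empty vector 15 ribosomal protein genes were called higher in WA than in WB and 0 lower, where 12.7% of all genes were called higher and 13.4% lower. Rps4l and Rpl39l were among those called higher in WA than in WB and than in WC, under each scaling. Rps4l was also among those lower in WB than in WC, again under each scaling. Both passed the filter through lines in which they are high, so their calls are no support for a difference between lines. The counts in this paragraph nevertheless include these calls. Between WA and WC 6 were higher and 1 lower in WA, against 14.7% and 15.1%, and between WB and WC 1 was higher and 6 lower in WB, against 16.5% and 16.0%. The WA minus WB count was 7 after quantile normalization, 5 with equal array medians, 7 without WA empty replicate 3 and 7 without WB empty replicate 1.

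Rps19, whose human counterpart is mutated in Diamond-Blackfan anaemia, had 11753, 10701 and 13091 units in WA with the empty vector, 7793, 8088 and 8496 in WB and 10323, 11129 and 10117 in WC. WB was the low line, at 0.54 for WA minus WB (adjusted p = 7.49e-06) and -0.37 for WB minus WC (adjusted p = 0.000448), and the second of these was not called with equal array medians. Rps25 was also lowest in WB, with WA minus WB at 0.85 (adjusted p = 8.79e-05) and WB minus WC at -0.54 (adjusted p = 0.00536, not called with equal medians). Rps27l was higher in WC, with WA minus WC at -0.32 (adjusted p = 0.000668) and WB minus WC at -0.30 (adjusted p = 0.00122), and neither was called with equal medians. Rpl12 was higher in WA than in WC (0.46, adjusted p = 0.00437) and Rpl27 likewise (0.32, adjusted p = 0.00560), both also under the other scalings. Rpl37a differed by 0.30 for WA minus WB (adjusted p = 0.00352), which neither other scaling kept, and by -0.20 for WB minus WC (adjusted p = 0.0376, not called with equal medians).

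Over the 9 groups of line and vector the deposited signals of most of the genes rose and fell together. For each gene the mean log2 signal was set against the median of the other members, which gave an r of 0.8 or more for 32 of 44 genes and a median r of 0.87. These 9 points share the scaling of their arrays and the 3 lines. The same r was not worked out for other genes of like signal level or after quantile normalization, so it does not set these genes apart. Rps14 (r = 1.00), Rpl6 (0.99), Rpl19 (0.98) and Rps7 (0.98) lay closest to the others, and Rps6 (0.41), Rpl39 (0.38) and Rps27 (-0.45) were the 3 under 0.5. The group means spanned less than 0.5 on the log2 scale for 29 genes and 1 or more for 7. The median signal over the genes was 15614 ± 307 in WA with v-src, 18849 ± 1210 with c-myc and 17576 ± 1998 with the empty vector (SD, n = 3 each). It was 14174 ± 534 in WB with v-src (n = 2), 16887 ± 894 with c-myc and 14890 ± 733 with the empty vector. In WC it was 14909 ± 878 with v-src, 17246 ± 315 with c-myc and 15775 ± 1590 with the empty vector.

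Other probe sets of the same genes went the same way in most cases and often further. The 46 genes had 100 probe sets. All 64 with a mean log2 level above 13 had lower v-src than c-myc values, with a median of -0.25, and 25 of the 29 between the filter and 13 did, with a median of -0.41. In 9 genes with a kept probe set above 13 there were 13 further probe sets between the filter and a level of 11, and 12 of these 13 were further below 0 than the kept one. Probe sets under the filter stayed out of this count, among them those of Rps4x (-0.11 against -0.26 for the kept one) and Rpsa (-0.01 against -0.27), which were not further below 0. Those of Rps18 under the filter were further below 0, with -0.56 and -0.25 against -0.21 for the kept one. For Rps10 the low probe set had -1.17 and the kept one -0.22, and for Rpl41 the 2 low ones had -0.91 and -0.81 and the kept one -0.26. Rps3 had 2 low probe sets, of which one went the other way, with 0.71 against -0.20, and the other had -0.64. This set of pairs was chosen after their values were seen, and whether probe response at high signal has a part in it was not tested.

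**Figure D5:**
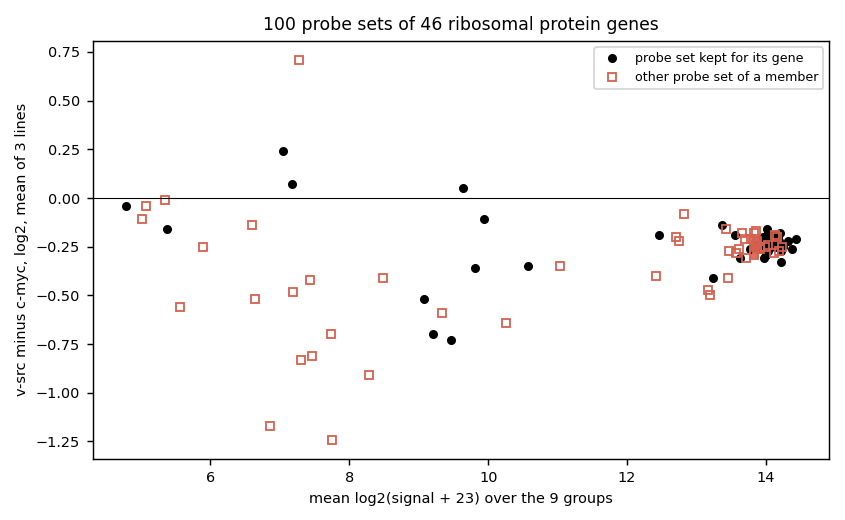
Mean log2(signal + 23) over the 9 groups (horizontal axis) and v-src minus c-myc, as the mean of 3 lines in log2 units (vertical axis), for the 100 probe sets of the 46 genes. Values are as deposited. Filled circles are the probe set kept for a gene and open squares its others. Above a level of 13 all points lay between -0.50 and -0.14, and below it they spread from -1.24 to 0.71.

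Many of the genes that assemble ribosomes were called in both comparisons that involve c-myc. Of 40 assembly and RNA polymerase I genes, 33 were lower and 0 higher with v-src than with c-myc (13.6% and 11.9% of all genes). The median was -0.66. With c-myc against the empty vector 31 were higher and 0 lower (10% and 9.76% of all genes), with a median of 0.62. Quantile normalization gave counts of 33 and 31 (13.5% and 9.94% of all genes), and equal array medians gave 29 and 27 (12.5% and 5.69%). Among them Tsr2, which escorts Rps26 to the ribosome, differed by -1.17 (SE 0.10, adjusted p = 0.000664) between v-src and c-myc cells, Rrp12 by -1.11 and the snoRNP protein gene Nop58 by -1.08. With c-myc against the empty vector, Nolc1 was higher by 1.08 (SE 0.11, adjusted p = 0.00286), Nob1, the nuclease that finishes the small subunit RNA, by 1.07, and the polymerase I subunit gene Polr1b by 1.05. With v-src against the empty vector 2 were higher (Riok2 by 0.55, Nhp2 by 0.45) and 1 lower (Tsr2, -0.36), with a median of -0.06. Of all genes 6.64% were higher and 6.78% lower, so these last counts are no result about the list. How far the assembly genes differed from the ribosomal proteins was not tested.

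Of 73 mitochondrial ribosomal protein genes, 32 were lower and 0 higher with v-src than with c-myc (13.6% and 11.9% of all genes). The median was -0.37. With c-myc against the empty vector 32 were higher and 0 lower (10% and 9.76% of all genes), with a median of 0.36. After quantile normalization these counts were 37 and 34 (13.5% and 9.94% of all genes), and with equal array medians 29 and 18 (12.5% and 5.69%). Mrpl42 differed by -0.82 (SE 0.09, adjusted p = 0.00112) in v-src minus c-myc, and Mrps5 was higher by 0.94 (SE 0.11, adjusted p = 0.00365) with c-myc than with the empty vector. With v-src against the empty vector 4 of the 73 were higher and 1 lower, against 6.64% and 6.78% of all genes, so this count is no result about the list.

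Of 14 other genes with TOP messenger RNAs, 11 were lower and 0 higher with v-src than with c-myc (13.6% and 11.9% of all genes). The median was -0.24. After quantile normalization 5 were lower (13.5% of all genes, list median -0.04), and with equal array medians 7 (12.5% of all genes). Nap1l1 (-0.50, SE 0.06, adjusted p = 0.00208), Npm1 (-0.46) and Eif4b (-0.44) had the largest differences. With c-myc against the empty vector 5 were higher and 0 lower (10% and 9.76% of all genes), with Hnrnpa1 at 0.49, Eif4b at 0.46 and Nap1l1 at 0.37. Quantile scaling gave the same counts for the list (9.94% and 9.52% of all genes), and with equal array medians 3 were higher (5.69%). With v-src against the empty vector 2 were lower, Eif3e (-0.28) and Vim (-0.23), against 6.78% of all genes, and 0 were lower after quantile normalization (6.77%). Of the 4 ribosomal protein relatives outside the symbol rule, Rpl7l1 (-0.58), Rpl22l1 (-0.39) and Rps3a1 (-0.28) were lower in v-src than in c-myc cells. After quantile normalization 2 of the 4 were. Of all genes 13.6% were lower as deposited and 13.5% after quantile normalization. Rpl22l1, the paralogue of Rpl22, was also lower than with the empty vector (-0.55, SE 0.07, adjusted p = 0.00408), while Rpl22 differed there by 0.00 (SE 0.06).

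Of 17 translation initiation and TOR genes, 5 were lower and 0 higher in v-src than in c-myc cells (13.6% and 11.9% of all genes), led by Deptor (-0.65), Eif4ebp2 (-0.56) and Larp1 (-0.53), the last of which binds TOP messenger RNAs. With c-myc against the empty vector 5 were higher and 1 lower (10% and 9.76% of all genes), with Eif4ebp2 at 0.64, Larp1 at 0.40 and Eif4ebp1 at -0.42. After quantile normalization 1 was higher and 3 lower in v-src than in c-myc cells (11.6% and 13.5% of all genes). With equal array medians 1 was higher and 0 lower with c-myc than with the empty vector (5.69% and 10.7%). With v-src against the empty vector 0 were called (6.64% of all genes higher, 6.78% lower), and 1 in each direction after quantile normalization (6.35% and 6.77%). Of 9 genes of the p53 and Mdm2 branch, Cdkn1a (1.94, SE 0.41, adjusted p = 0.0118) and Sesn2 (1.11) were higher and Sesn1 (-1.16) lower in v-src than in c-myc cells, where 11.9% of all genes were higher and 13.6% lower. With v-src against the empty vector Cdkn1a (1.72) and Mdm2 (0.86) were higher and Phlda3 (-1.09) and Ccng1 (-0.68) lower (6.64% and 6.78% of all genes), and with c-myc against the empty vector Sesn2 (-0.91), Phlda3 (-0.83) and Ccng1 (-0.54) were lower, where 9.76% of all genes were.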

How the data were processed

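Total RNA of 26 fibroblast samples was hybridized to Affymetrix arrays. The authors deposited a linear intensity for each of 45101 probe sets. The submitters' processing notes name MAS5, and its version is not given in the sources used. Every array had a mean of 500 once the highest and lowest 2% of values were left out. Samples were grouped by parental line and vector from the labels. The labels do not say that replicate numbers pair arrays. Same-numbered deviations of arrays from different groups correlated at a median of -0.01 (-0.18 to 0.21, with 9 of 100 pairs over 0.1). That median pools all groups, so a pairing between some of them was not tested. The number of arrays limits the precision.

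From the deposited intensity values, log2(value + 23) was computed, with the pseudocount near the 20th percentile of all values, so fold changes of low genes are understated. Gene names came from GEO's platform annotation, in which 34958 probe sets (13 controls included) had 1 gene, 932 several and 9211 were not listed. Probe sets above the 40th percentile of mean log2 value were kept, with the highest per gene, which left 13018 of 18193 genes. limma 3.58.1 in R 4.3.3 (lmFit and eBayes with an intensity trend, Benjamini-Hochberg over the 13018 genes, adjusted p under 0.05) was fitted to the 9 averages of line and vector with line as a term (4 residual and 3.9 prior degrees of freedom), and to the 26 arrays with 9 means within and between lines (17 and 6.2). An SE over the lines is pooled over the vectors. The tests were checked on simulated data. The 3 comparisons between vectors share arrays. A total of 0 value columns were left unused.

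Alternatives were quantile and equal-median scaling, pseudocounts of 1 and 100, no filter, other choices of probe set, no trend, arrays as separate values with and without the replicate number as a block, and leaving out each line and each array. Members, lists and tests were chosen with earlier results of these data known. Named genes were, per comparison over the lines, called members up to the 15 with the largest change, the 5 with the smallest adjusted p for each difference between lines or between their responses, the 3 highest and lowest levels, a fixed set of symbols, and up to 3 called genes per list. Promoters were read from RefSeq's GRCm38.p6 windows of 300 bases, found for 40 of the 46 genes.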

Additional observations from a re-analysis of the deposited data

Results flagged for a closer look

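Rpl14 was singled out because its change with v-src against the empty vector differed between the lines (limma F test, adjusted p = 0.0131), at 0.07 in WA, -0.45 in WB and 0.20 in WC. The adjusted p was 0.0163 after quantile normalization and 0.10 with equal array medians. Without single arrays it lay between 0.00553 and 0.140, the highest without WB v-src replicate 2, which left 1 v-src array in WB whose spread is taken from the other groups.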

How the results depend on the processing

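The call counts in this paragraph are of the 44 ribosomal protein genes. In v-src minus c-myc, 35 as reported became 4 after quantile normalization (median -0.03), 4 without the intensity trend, 12 of 22 with plain _at probe sets (median -0.38), 16 of 20 with the second highest probe set, and 7, 12 and 7 without lines WA, WB and WC. Leaving out single arrays gave 32 to 37 and medians of -0.27 to -0.22. In c-myc minus empty, 7 as reported became 4 (median 0.08) after quantile normalization, 2 (median 0.06) with equal medians, 3 without the filter, without the trend and with the second highest probe set, and 0, 2 and 0 without lines WA, WB and WC. It was 21 with arrays as separate values and 20 with the replicate block, and 16 without both arrays that stood apart. Without single arrays it lay between 3 and 19 (medians 0.11 to 0.16), at 4 without WA empty replicate 1, 11 without WC empty replicate 1 and 12 without WA c-myc replicate 1. In v-src minus empty, 1 as reported became 0 after quantile normalization (where the median reversed to 0.03), without the filter, without the trend, with plain probe sets (median -0.17), without each line and without both arrays apart, 2 with equal medians (median -0.20), 2 when the probe sets of a gene were averaged, 3 with the second highest probe set, 13 with separate arrays and 12 with the replicate block. Without single arrays it lay between 0 and 4 (medians -0.15 to -0.09), with 4 without WB empty replicate 1, 2 without WB v-src replicate 2 or WC v-src replicate 3, and 0 without WA empty replicate 3, WB empty replicate 2, WC empty replicate 1, WB v-src replicate 3 or WC v-src replicate 1.

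In values within lines, c-myc minus empty in WA, WB and WC gave 1, 0 and 3 with equal medians. Under quantile scaling v-src minus empty gave 2 higher and 0 lower in WA, 4 calls (3 higher, 1 lower) in WB and 6 (4 higher, 2 lower) in WC, against 2, 1 and 2 lower as reported, and with equal medians 1 in WA and 0 in WC. WA minus WB gave 7 and 5 under the quantile and median scalings, and WB minus WC gave 11 and 2. Each of these counts includes Rps4l, and those of WA minus WB include Rpl39l as well. The F test across lines called 2 genes for c-myc after quantile normalization, and for v-src 2 after quantile normalization and 0 with equal medians. Without single arrays, added after seeing the data, c-myc minus empty ranged from 3 to 13 in WA, 4 to 13 in WB and 6 to 11 in WC, v-src minus empty from 0 to 13 in WA, 0 to 1 in WB and 1 to 7 in WC, WA minus WB from 7 to 20, WA minus WC from 4 to 13, WB minus WC from 4 to 10, and the F tests from 0 to 2 for c-myc and 0 to 1 for v-src. The share of summed signal, which differed by -0.26, -0.10 and 0.16 percentage points in v-src minus c-myc, v-src minus empty and c-myc minus empty, gave -0.48, -0.15 and 0.32 over all probe sets of the genes.

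After quantile normalization v-src minus c-myc reversed for Rpl38 (0.05), Rps7 (0.04), Rplp2 (0.03), Rps20 (0.03), Rps18 (0.02), Rps3 (0.02), Rps10 (0.01), Rps24 (0.01), Rps28 (0.01) and Rps29 (0.01). The labels do not say that replicate numbers pair arrays, and the replicate block moved no count by more than 1.5 times against the same fit without it. Pseudocounts of 1 and 100 left the counts over the lines at 35, 1 and 7. The cause of these changes was not tested, except that fewer lines or genes enter some settings.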
